A study of Mus musculus with 12 samples.

Results

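The genes described here carry long-chain fatty acids from the blood into muscle fibres and bind and activate them there: Lpl, Gpihbp1, Cd36, Slc27a1, Slc27a4, Fabp3 and Acsl1. They were taken from a list of 7 symbols, and a probe set was kept where its only symbol in the probe-to-gene table was 1 of the 7. This gave 11 probe sets for 6 genes, out of 45037 probe sets and 18193 genes in all. Cd36 was read by 3 probe sets, Fabp3, Slc27a1 and Lpl by 2 each, and Slc27a4 and Gpihbp1 by 1 each, while Acsl1 was not analysed here. No filter on dim probe sets was applied, so all 11 entered the test.

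RNA from skeletal muscle of C57Bl/6 mice was hybridised to 12 Affymetrix arrays in a series about insulin resistance. In the first group, 4 arrays, mice had eaten a high-fat diet with 46% of calories from fat for 42 days; in the second, 4 arrays, the same diet was given for 5 days; the third, 4 arrays, held chow-fed mice whose diet had 13% of calories from fat. All mice ate chow until they were 6 weeks old, so mice sampled at 42 days were older than those sampled at 5 days. How old the chow mice were when sampled, their sex, the muscle taken, any batch and whether replicates were separate animals are not in the labels. Age and time on the diet cannot be told apart, and p-values measure only the spread between these samples.

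Circulating triglyceride is split by lipoprotein lipase on the capillary wall, where the enzyme is held by the endothelial protein GPIHBP1. The released fatty acids cross the endothelium and the fibre membrane with the help of CD36, a scavenger receptor, and of fatty acid transport proteins of the SLC27 family, which also have acyl-CoA synthetase activity. Inside the fibre they are bound by FABP3, the heart and muscle form of the fatty acid-binding proteins, and are joined to coenzyme A before they are oxidised or stored. Peroxisome proliferator-activated receptors, which fatty acids activate, are known to control several of these genes.

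All values below are log2 signals, on which 1 unit is a doubling of fluorescence. Differences were tested with limma, and a probe set was past the test at a Benjamini-Hochberg adjusted p under 0.05 over all 45037 probe sets. Values after ± are SD for group means (n = 4 arrays each) and SE for differences. Array medians lay between 7.59 and 7.70, and pairs of arrays correlated at 0.991 to 0.998, with no identical pair. The 12 skeletal muscle markers averaged 14.46 ± 0.0076 at 42 days, 14.48 ± 0.012 at 5 days and 14.48 ± 0.038 on chow. The 3 comparisons share arrays: both high-fat times were set against the same 4 chow arrays.

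Fabp3 and Cd36 rose on the high-fat diet, and Slc27a1 was higher at 42 than at 5 days, past the test for its brightest probe set only. That Slc27a1 call was not past the test in 14 of 25 alternative fits. At 42 days 3 of the 11 probe sets were past the test against chow, all higher: Fabp3 1416023_at, 1.55-fold, and the Cd36 probe sets 1450883_a_at and 1423166_at, 1.57-fold and 1.23-fold. Over all probe sets 8.78% were past the test in that comparison in either direction, and 4.65% were higher. At 5 days only Fabp3 1416023_at was past the test, 1.34-fold higher, against 3.21% of all probe sets in either direction and 1.53% higher. Between 42 and 5 days Cd36 1450883_a_at (1.31-fold) and Slc27a1 1422811_at (1.18-fold) were higher at 42 days, against 5.98% of all probe sets in either direction and 2.38% higher. All 42-day arrays lay above all chow arrays in 3 of the 11 probe sets (7.42% of all), all 5-day arrays above all chow arrays in 2 (4.88%), and all 42-day arrays above all 5-day arrays in 5 (7.88%). Lpl, Gpihbp1 and Slc27a4 had no probe set past the test in any of the 3 comparisons. In muscle homogenate, fewer cells of a type and less RNA per cell cannot be told apart.

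The median of the 11 differences at 42 days was 0.21, beside -0.0060 over all probe sets, and 9 of 11 were above 0. At 5 days the median was 0.065, beside -0.021, and 6 of 11 were above 0. With the brightest probe set standing for each gene, 2 of 6 genes rose at 42 days, against 6.31% of all genes in either direction, and 1 of 6 at 5 days, against 2.89%. Between 42 and 5 days 2 of 6 were higher, against 6.10%. The moderated F-test for any difference between the 3 groups passed 4 of the 11: Cd36 1450883_a_at (adjusted p = 0.00211), Cd36 1423166_at (0.0351), Fabp3 1416023_at (0.000809) and Slc27a1 1422811_at (0.0404). Over all probe sets 12.9% passed it.

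**Figure D1:**
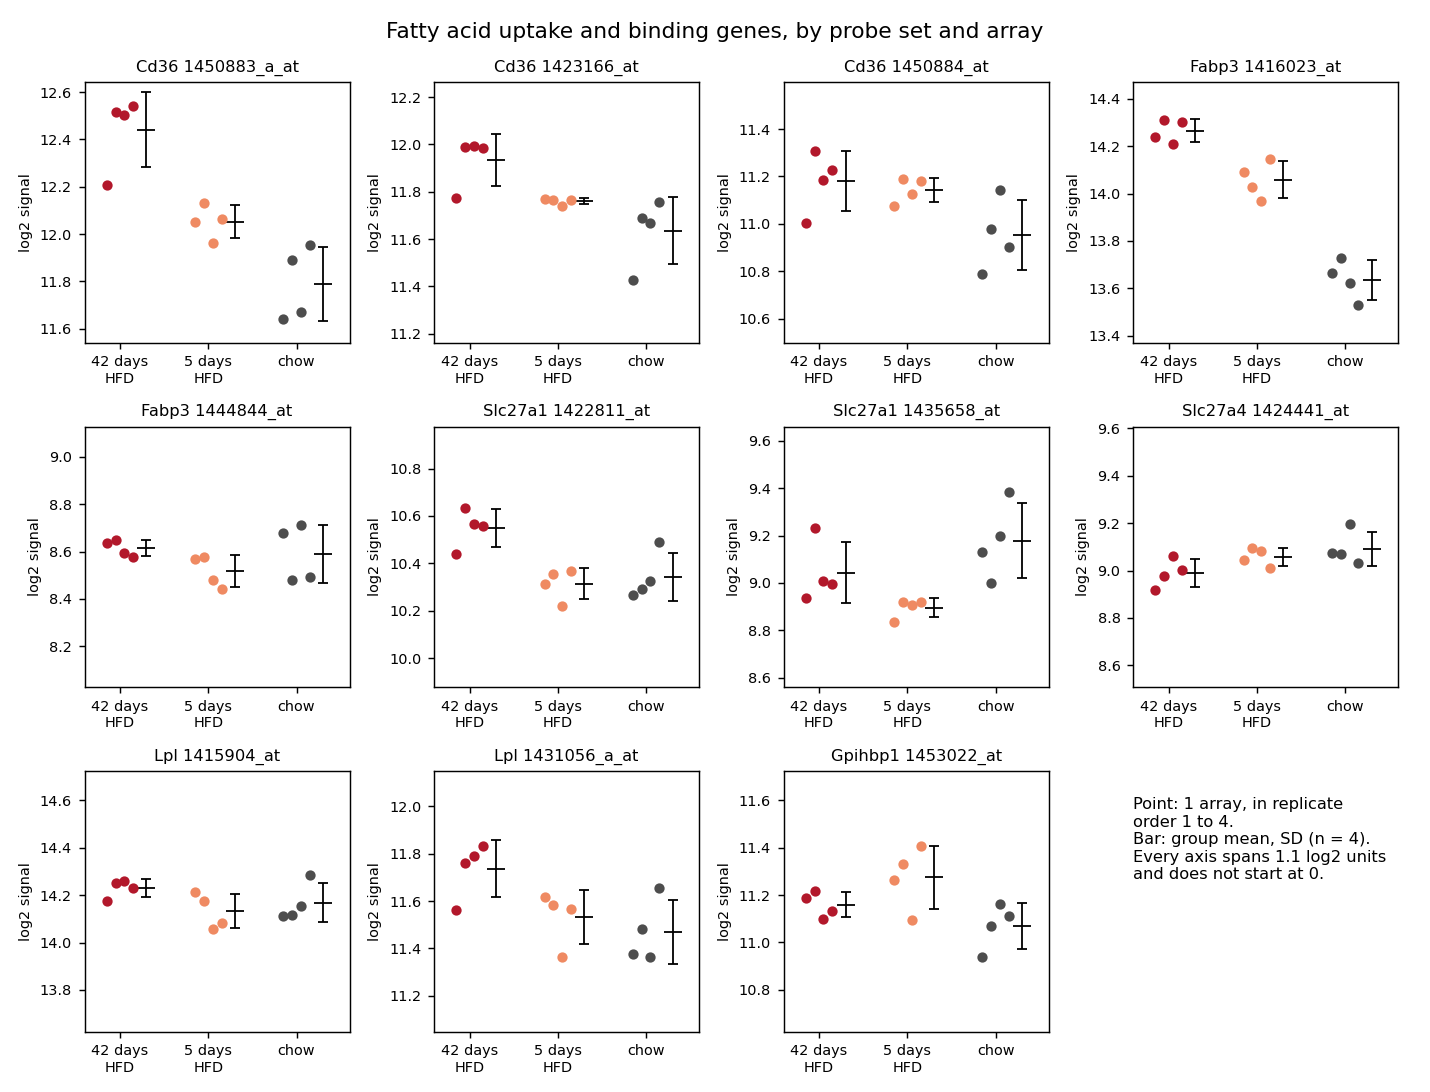
Log2 signal (y axis) of the 11 probe sets on each array, with 42 days, 5 days and chow from left to right; points are arrays and bars are group means with SD (n = 4). For Cd36 1450883_a_at and Fabp3 1416023_at the 3 groups do not overlap, with 42 days highest and chow lowest.

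The promoter-proximal sequence of Cd36 and Fabp3, the genes that rose, is shown because receptors of the PPAR family bind direct repeats of AGGTCA. Of the 6 genes, 4 had an entry in the RefSeq promoter table (GRCm38.p6), and the 250 bases before each listed start were searched on both strands. For Cd36 the window was chr5:17835897-17836146 on the minus strand, with 43.2% G and C. It lies inside the annotated gene, which spans chr5:17781690-17888959. For Fabp3 it was chr4:130308488-130308737 on the plus strand, with 64.8% G and C, directly before the gene at chr4:130308738-130315463. Capitals mark AGGTCA or its reverse complement TGACCT, in these sequences written 5′ to 3′ towards the start site.
Cd36: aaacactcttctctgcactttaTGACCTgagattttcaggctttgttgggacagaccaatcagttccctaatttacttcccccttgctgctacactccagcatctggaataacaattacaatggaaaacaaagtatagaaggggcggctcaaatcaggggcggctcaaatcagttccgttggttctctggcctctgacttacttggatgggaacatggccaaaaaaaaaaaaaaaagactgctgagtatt
Fabp3: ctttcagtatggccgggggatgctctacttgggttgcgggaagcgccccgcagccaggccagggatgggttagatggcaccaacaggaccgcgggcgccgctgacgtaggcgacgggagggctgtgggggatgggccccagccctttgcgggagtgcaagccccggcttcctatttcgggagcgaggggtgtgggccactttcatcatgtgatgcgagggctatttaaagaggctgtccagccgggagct
Cd36 held 1 AGGTCA, read on the other strand as TGACCT, 228 to 223 bases before the start, and Fabp3 held none in this window. Of 32851 promoter windows of the same length in the table, 4607 (14.0%) held AGGTCA on either strand and 11 (0.0335%) held AGGTCA and a second copy 1 base after it (the DR1 repeat), which neither gene had in its window. Such a match describes letters and shows no binding.

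Lpl encodes lipoprotein lipase, the enzyme at the start of the route. Its probe set 1415904_at read 14.18, 14.25, 14.26 and 14.23 at 42 days. At 5 days it read 14.21, 14.17, 14.06 and 14.08, and on chow 14.11, 14.12, 14.16 and 14.29. The 3 groups overlapped. The difference from chow was 0.061 ± 0.058 at 42 days (95% confidence interval -0.062 to 0.18, adjusted p = 0.582) and -0.035 ± 0.058 at 5 days (adjusted p = 0.739).

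The second Lpl probe set, 1431056_a_at, read 11.56, 11.76, 11.79 and 11.83 at 42 days. At 5 days it read 11.62, 11.58, 11.37 and 11.57, and on chow 11.38, 11.48, 11.36 and 11.65. At 42 days 3 of the 4 arrays lay above every chow array. The difference of 0.27 ± 0.081 missed the threshold at 42 days (interval 0.097 to 0.44, adjusted p = 0.0503), and that at 5 days was 0.065 ± 0.081 (adjusted p = 0.651). The 42-day difference was past the test without the 42-day replicate 1 (adjusted p = 0.0288), the 5-day replicate 3 (0.0369) or the chow replicate 4 (0.0257). With any other 1 array left out it was not past, with adjusted p up to 0.157.

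Gpihbp1 encodes the capillary anchor of lipoprotein lipase. Its probe set read 11.19, 11.22, 11.10 and 11.13 at 42 days, 11.27, 11.33, 11.10 and 11.41 at 5 days, and 10.94, 11.07, 11.16 and 11.11 on chow. At 5 days 3 arrays lay above every chow array and the fourth, replicate 3, lay within the chow range. The difference from chow was 0.20 ± 0.071 at 5 days (interval 0.055 to 0.35, adjusted p = 0.101) and 0.089 ± 0.071 at 42 days (adjusted p = 0.501). Without the 5-day replicate 3, the 5-day difference was 0.26 and past the test (adjusted p = 0.0463). With any other 1 array left out it was not past, with adjusted p up to 0.238. The mean of 15 endothelial markers was also highest at 5 days, at 9.94 ± 0.044 at 42 days, 10.05 ± 0.103 at 5 days and 9.88 ± 0.067 on chow. With that mean as a covariate the Gpihbp1 difference at 5 days was 0.062 (adjusted p = 0.898).

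Cd36 encodes the scavenger receptor that binds long-chain fatty acids at the surface of fibres and endothelium. Its brightest probe set, 1450883_a_at, read 12.21, 12.52, 12.50 and 12.54 at 42 days. At 5 days it read 12.05, 12.13, 11.96 and 12.06, and on chow 11.64, 11.89, 11.67 and 11.95. Every 42-day array lay above every 5-day array, and every 5-day array above every chow array, the last narrowly (11.962 at the lowest against 11.952 at the highest). The change was 0.65 ± 0.086 at 42 days (interval 0.47 to 0.84, adjusted p = 0.000592) and 0.26 ± 0.086 at 5 days (interval 0.082 to 0.45, adjusted p = 0.0853).

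Between 42 and 5 days the same Cd36 probe set differed by 0.39 ± 0.086 (interval 0.21 to 0.57, adjusted p = 0.0258). That call was lost without the 42-day replicate 2 (adjusted p = 0.0641) or 4 (0.0607) and without the 5-day replicate 2 (0.0629) or 3 (0.0651). The 42-day change against chow passed without each of the 12 arrays in turn, with values of 0.60 to 0.73.

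The Cd36 probe set 1423166_at read 11.77, 11.99, 12.00 and 11.98 at 42 days, 11.77, 11.76, 11.74 and 11.77 at 5 days, and 11.43, 11.69, 11.67 and 11.76 on chow. All 42-day arrays lay above all chow arrays, with 11.772 as the lowest at 42 days against 11.756 as the highest on chow. Its change at 42 days was 0.30 ± 0.072 (interval 0.15 to 0.45, adjusted p = 0.0186), and it missed the threshold without the 42-day replicate 2 (adjusted p = 0.0541), 3 (0.0531) or 4 (0.0591). At 5 days its difference was 0.12 ± 0.072 (adjusted p = 0.303).

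The third Cd36 probe set, 1450884_at, read 11.01, 11.31, 11.19 and 11.23 at 42 days, 11.08, 11.19, 11.13 and 11.18 at 5 days, and 10.79, 10.98, 11.14 and 10.90 on chow. The high-fat groups overlapped with chow through the chow replicate 3, and with each other. The differences of 0.23 ± 0.078 at 42 days (interval 0.063 to 0.39, adjusted p = 0.0832) and 0.19 ± 0.078 at 5 days (adjusted p = 0.153) were not past the test. The 42-day one passed without the 42-day replicate 1 (adjusted p = 0.0405) or the chow replicate 3 (0.0416). With any other 1 array left out it did not pass, with adjusted p up to 0.216.

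Slc27a1 encodes FATP1, the fatty acid transport protein that is prominent in muscle and fat. Its brightest probe set, 1422811_at, read 10.44, 10.63, 10.57 and 10.56 at 42 days, 10.31, 10.36, 10.22 and 10.37 at 5 days, and 10.27, 10.29, 10.33 and 10.49 on chow. Every 42-day array was above every 5-day array, but the chow replicate 4 lay inside the 42-day range. The 42-day value exceeded the 5-day value by 0.24 ± 0.064 (interval 0.099 to 0.37, adjusted p = 0.0448). This call was lost without any 1 of the 8 high-fat arrays or without the chow replicate 2, with adjusted p between 0.0506 and 0.113, and with arrays centred on their medians (0.17, adjusted p = 0.115). It was also lost with the adipocyte (adjusted p = 0.0509), slow fibre (0.0529), endothelial (0.108) or liver (0.225) marker mean as a covariate. The difference was then 0.21, 0.23, 0.31 and 0.25 in that order. With the endothelial and liver covariates 1 and 0 of all 45037 probe sets passed limma's test in this comparison.

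Against chow, Slc27a1 1422811_at differed by 0.21 ± 0.064 at 42 days (interval 0.070 to 0.34, adjusted p = 0.0587) and by -0.029 ± 0.064 at 5 days (adjusted p = 0.814). The 42-day difference was past the test without the 42-day replicate 1 (adjusted p = 0.0477) or the chow replicate 4 (0.0293). With any other 1 array left out it was not past, with adjusted p up to 0.157.

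The dimmer Slc27a1 probe set, 1435658_at, read 8.94, 9.23, 9.01 and 8.99 at 42 days, 8.84, 8.92, 8.91 and 8.92 at 5 days, and 9.13, 9.001, 9.20 and 9.38 on chow. At 5 days all arrays lay below all chow arrays, as they did for 6.83% of all probe sets. The difference of -0.28 ± 0.080 (interval -0.45 to -0.11) had an adjusted p of 0.0598, and without the chow replicate 2 it was -0.34 with an adjusted p of 0.0429. With any other 1 array left out it was not past the test, with adjusted p up to 0.130. At 42 days the difference was -0.14 ± 0.080 (adjusted p = 0.338).

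Slc27a4 encodes FATP4, a related transport protein with acyl-CoA synthetase activity. It read 8.92, 8.98, 9.06 and 9.003 at 42 days, 9.04, 9.10, 9.08 and 9.01 at 5 days, and 9.07, 9.07, 9.20 and 9.03 on chow, with overlap between all groups. The differences from chow were -0.10 ± 0.055 at 42 days (interval -0.22 to 0.015, adjusted p = 0.290) and -0.034 ± 0.055 at 5 days (adjusted p = 0.741).

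Fabp3 encodes the cytosolic fatty acid-binding protein of heart and oxidative muscle. Its brightest probe set, 1416023_at, read 14.24, 14.31, 14.21 and 14.30 at 42 days, 14.09, 14.03, 13.97 and 14.15 at 5 days, and 13.67, 13.73, 13.62 and 13.53 on chow. All 8 high-fat arrays lay above all 4 chow arrays, and all 42-day arrays above all 5-day arrays. The change was 0.63 ± 0.060 at 42 days (interval 0.50 to 0.76, adjusted p = 0.000205), the third smallest p of all 45037 probe sets. At 5 days it was 0.42 ± 0.060 (interval 0.29 to 0.55, adjusted p = 0.0159).

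The 42-day change of Fabp3 passed without each of the 12 arrays in turn, with values of 0.59 to 0.66. The 5-day change kept a value of 0.39 to 0.45, but its adjusted p was 0.0594 without the 5-day replicate 2 and 0.0552 without the chow replicate 3. The value at 42 days exceeded that at 5 days by 0.21 ± 0.060 (interval 0.081 to 0.33, adjusted p = 0.0521), and this passed without the 5-day replicate 4 (adjusted p = 0.0446). Of 25 alternative fits, 7 brought this difference past limma's test and 18 did not. Among the 7 were cyclic loess (adjusted p = 0.0406) and a trended prior (0.0154).

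The other Fabp3 probe set, 1444844_at, read 8.64, 8.65, 8.60 and 8.58 at 42 days, 8.57, 8.58, 8.48 and 8.44 at 5 days, and 8.68, 8.48, 8.71 and 8.49 on chow. The groups overlapped, and the differences from chow were 0.024 ± 0.064 at 42 days (interval -0.11 to 0.16, adjusted p = 0.872) and -0.073 ± 0.064 at 5 days (adjusted p = 0.502).

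**Figure D2:**
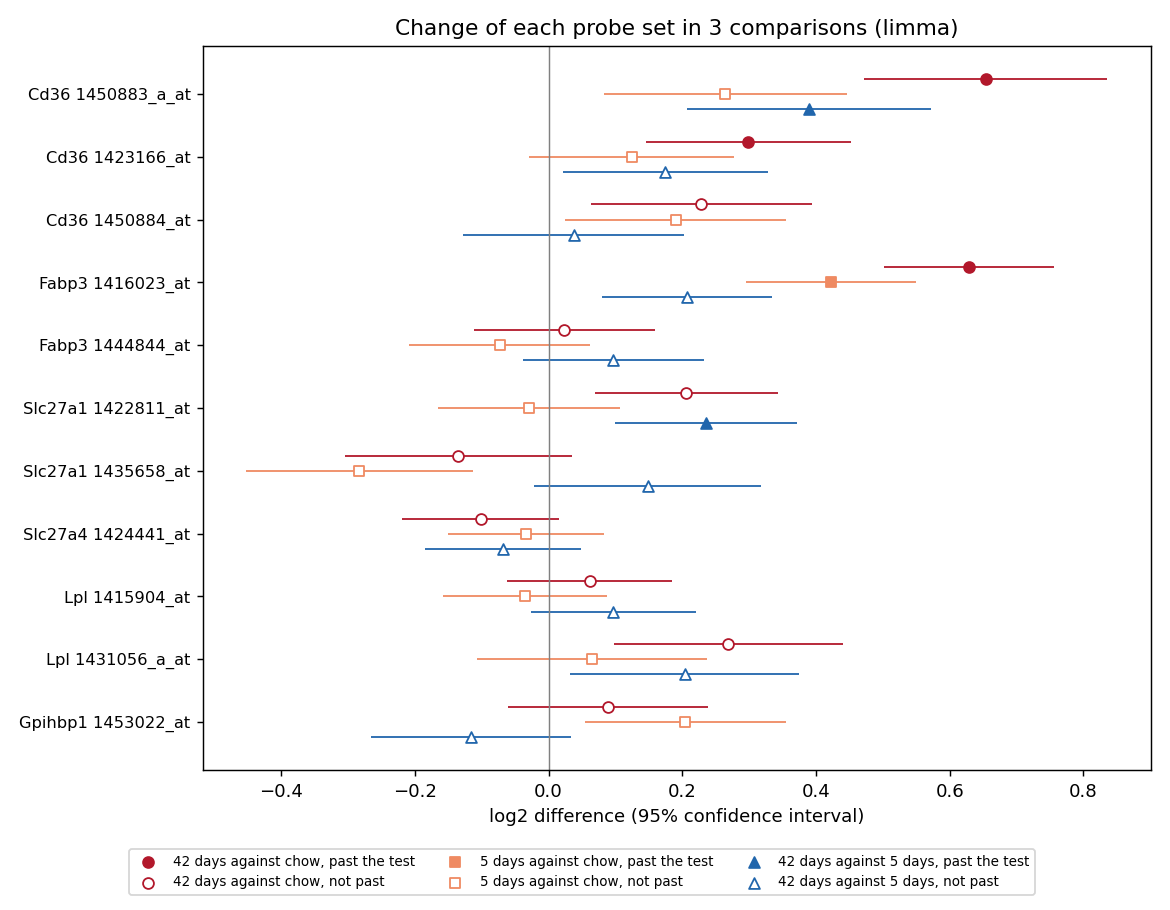
Log2 difference (x axis) of each probe set in the 3 comparisons, with its 95% confidence interval; filled symbols are past the test. The 42-day changes of Fabp3 1416023_at (0.63) and Cd36 1450883_a_at (0.65) stand farthest to the right, and the intervals of Slc27a4 include 0.

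Probe sets of 1 gene did not always differ from chow by the same amount. In each array the log2 value of a gene's other probe set was subtracted from that of its brightest, and these gaps were compared by an exact two-sided permutation test of 4 against 4 arrays, whose smallest possible p is 0.0286. The size of a gap depends on the probes, and its change between groups can depend on them too. The tests therefore do not show that transcripts of 1 gene changed differently. They also share the chow arrays and, for Cd36, the brightest probe set. Of 10 such tests, 8 reached that smallest p, with 0.0357 after Benjamini-Hochberg adjustment over the 10.

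For Fabp3 the gap was 5.65 ± 0.055 at 42 days and 5.05 ± 0.146 on chow, a difference of 0.61, and at 5 days it was 5.54 ± 0.115, a difference of 0.49 from chow. For Cd36 1450883_a_at over 1423166_at it was 0.507 ± 0.052 at 42 days and 0.152 ± 0.10 on chow, a difference of 0.36. The gap of Cd36 1450883_a_at over 1450884_at was 1.26 ± 0.063 at 42 days and 0.835 ± 0.220 on chow, a difference of 0.43, while at 5 days the difference of 0.074 had an exact p of 0.686. For Slc27a1 the gap was 1.51 ± 0.076 at 42 days and 1.17 ± 0.083 on chow, a difference of 0.34. For Lpl the gap fell to 2.49 ± 0.090 at 42 days, against 2.70 ± 0.078 on chow, while at 5 days its difference of -0.10 had an exact p of 0.143.

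Cell types that could be in the sample were followed through marker lists. The 10 slow fibre markers averaged 12.06 ± 0.048 at 42 days, 12.08 ± 0.129 at 5 days and 11.81 ± 0.296 on chow; 2 of 10 rose at 42 days and 0 of 10 were past limma's test at 5 days (6 at an unadjusted p under 0.05), although all 10 had higher values. Fabp3 is known to be richer in slow, oxidative fibres. The slow fibre mean ranged from 12.04 to 12.13 at 42 days, from 11.89 to 12.18 at 5 days and from 11.46 to 12.18 on chow. With the slow fibre mean as a covariate the Fabp3 change was 0.59 at 42 days and past the test, and 0.38 at 5 days with an adjusted p of 0.0535. The part of slow fibre content in the Fabp3 values was not tested beyond this fit.

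The 11 adipocyte markers averaged 9.88 ± 0.380 at 42 days, 9.73 ± 0.176 at 5 days and 10.21 ± 0.367 on chow, and 0 of 11 were past limma's test at 42 days (5 at an unadjusted p under 0.05), while Retn and Cidec fell at 5 days. Adipocytes also express Cd36 and Lpl, and with the adipocyte mean as a covariate the Cd36 1450883_a_at change at 42 days was 0.75 and past the test. The same covariate brought the 42-day differences of Lpl 1431056_a_at (0.34, adjusted p = 0.0339) and Slc27a1 1422811_at (0.27, adjusted p = 0.0315) past the test. Of the 15 endothelial markers, 1 rose at 42 days and 2 at 5 days. Over all genes 6.31% and 2.89% were past the test in either direction. At 5 days 13 of the 15 had higher values than on chow, and 8 had an unadjusted p under 0.05 in limma's test. At 42 days these counts were 9 and 2. Capillary endothelium expresses Cd36 too. With the endothelial mean as a covariate the Cd36 1450883_a_at change was 0.58 at 42 days, past the test, and 0.035 at 5 days. The Fabp3 1416023_at change with the same covariate was 0.61 at 42 days, past the test. At 5 days it was 0.37 ± 0.089, with an adjusted p of 0.591. With this covariate 0 of all 45037 probe sets passed limma's test at 5 days.

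The 11 liver markers averaged 9.25 ± 0.523 at 42 days (8.62 to 9.89), 8.18 ± 0.716 at 5 days (7.46 to 9.09) and 7.96 ± 0.159 on chow (7.74 to 8.08), and 10 of 11 rose at 42 days. Their group means were highest at 42 days and lowest on chow, as were those of Cd36 1450883_a_at and Fabp3 1416023_at. With the liver mean as a covariate, an alternative added after these values were seen, the 42-day change was 0.67 for Cd36 1450883_a_at (adjusted p = 0.142) and 0.57 for Fabp3 1416023_at (adjusted p = 0.123), and 0 of all 45037 probe sets passed limma's test at 42 days, with 4924 at an unadjusted p under 0.05.

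**Figure D3:**
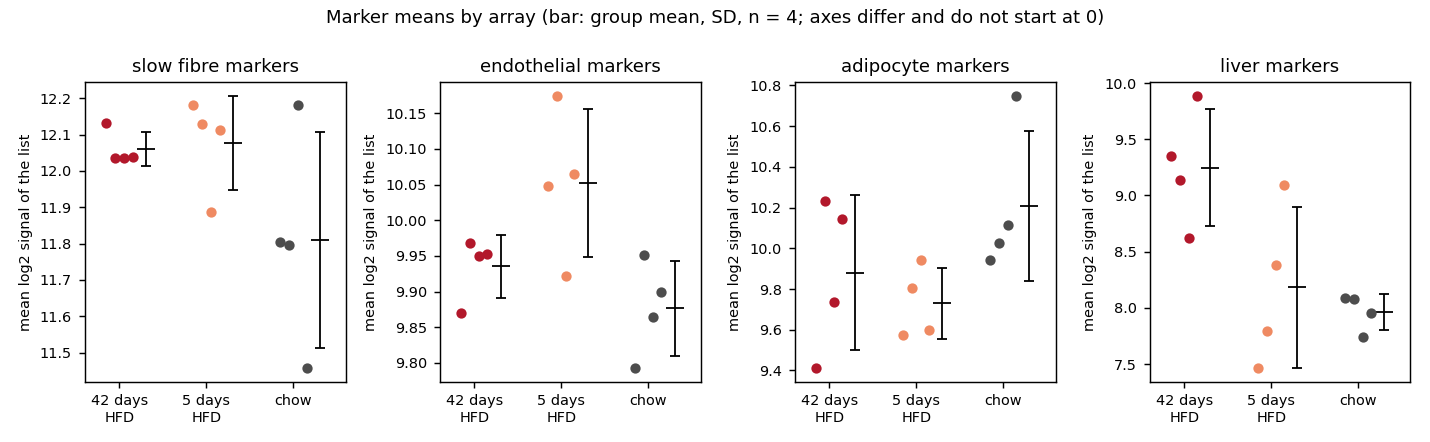
Mean log2 signal (y axis) of the slow fibre, endothelial, adipocyte and liver marker lists on each array, with 42 days, 5 days and chow from left to right; bars are group means with SD (n = 4). The liver mean is above every chow array on all 42-day arrays, and the slow fibre mean spreads more widely on chow (SD 0.296) than at 42 days (SD 0.048).

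Other genes of the route were read through 6 lists of 78 genes, of which 73 had a probe set. At 42 days 8 rose, 2 fell and 63 were not past the test, against 6.31% of all genes past it in either direction. The median difference was 0.033, beside -0.013 over all genes. At 5 days 1 rose, 1 fell and 71 were not past, against 2.89% of all genes, with a median of 0.040. Of the 10 calls at 42 days, 4 held without each of the 12 arrays in turn (Fabp1, Acot1, Zdhhc5 and Cpt1a) and 6 were lost without at least 1 of them. Both calls at 5 days were lost without some array.

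Among 7 other transport proteins, Slc27a5, a bile acid and very long-chain acyl-CoA synthetase typical of liver, rose at 42 days (7.26 ± 0.220 at 42 days, 6.81 ± 0.013 at 5 days and 6.85 ± 0.147 on chow). Its change was 0.40 ± 0.094 (adjusted p = 0.0158), and its highest adjusted p with 1 array left out was 0.0626, without the chow replicate 3. With the liver mean as a covariate it was 0.21 (adjusted p = 0.590). Cav1, a caveolar coat protein, differed from chow by 0.093 at 42 days (adjusted p = 0.564). None of the 7 was past limma's test at 5 days, and 1 had an unadjusted p under 0.05.

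Of 12 other binding proteins, Fabp1, the liver form, rose at 42 days, with 9.08 ± 0.661 at 42 days, 7.55 ± 0.834 at 5 days and 7.22 ± 0.339 on chow. Its change of 1.85 ± 0.35 was 3.62-fold (adjusted p = 0.00498) and moved with the liver markers described above: with the liver mean as a covariate it was 0.33. Fabp4, the adipocyte form, differed from chow by -0.24 ± 0.12 at 42 days (adjusted p = 0.233) and by -0.35 ± 0.12 at 5 days (adjusted p = 0.0949).

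Among 16 acyl-CoA synthetases and thioesterases, Acot1, a cytosolic thioesterase that frees long-chain fatty acids from coenzyme A, rose 1.38-fold at 42 days (0.47 ± 0.10, adjusted p = 0.0117). Its change was 0.39 with the slow fibre mean as a covariate (adjusted p = 0.0704) and 0.62 with the liver mean (adjusted p = 0.200). Acss2, which activates acetate, fell by 0.37 at 42 days (SE 0.096, adjusted p = 0.0273; up to 0.0967 without 1 array, the chow replicate 3). Acsm3, a medium-chain synthetase, fell by 0.44 at 5 days (SE 0.11, adjusted p = 0.0481; up to 0.124, without the 5-day replicate 2).

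Of 15 genes of lipase regulation and lipoprotein uptake, Apoc3, an apolipoprotein that inhibits lipoprotein lipase and is made in liver, rose by 0.71 ± 0.20 at 42 days (adjusted p = 0.0383, and 0.125 without the chow replicate 3), and its difference was -0.091 with the liver mean as a covariate. Sdc1, a heparan sulfate proteoglycan that takes part in lipoprotein uptake, rose by 0.23 ± 0.066 at 42 days (adjusted p = 0.0404). The Sdc1 call was lost when any of 8 of the 12 arrays was left out, with an adjusted p of up to 0.128, without the 42-day replicate 4. Its difference was 0.12 with the liver mean as a covariate (adjusted p = 0.685). Angptl4, a lipase inhibitor read by a probe set whose name marks possible cross-hybridisation, differed by -0.27 ± 0.19 at 42 days (adjusted p = 0.429) and -0.33 at 5 days (adjusted p = 0.294).

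Among 15 genes of CD36 palmitoylation and vesicle traffic, Zdhhc5, a palmitoyltransferase that acts on CD36 at the cell surface, read 10.92 ± 0.057 at 42 days, 10.80 ± 0.095 at 5 days and 10.55 ± 0.089 on chow. It rose 1.29-fold at 42 days (0.37 ± 0.063, adjusted p = 0.00265) and by 0.26 ± 0.063 at 5 days (adjusted p = 0.0446). With the liver mean as a covariate the 42-day change was 0.25 (adjusted p = 0.350). The 5-day call was lost when any of 10 of the 12 arrays was left out, with an adjusted p of up to 0.110, without the 5-day replicate 2. Rab11a, a recycling endosome GTPase, rose by 0.19 ± 0.049 at 42 days (adjusted p = 0.0234). The Rab11a call was lost when any of 4 of the 12 arrays was left out, with an adjusted p of up to 0.0818, without the 42-day replicate 4. Vamp2, a vesicle SNARE, fell by 0.23 (SE 0.055, adjusted p = 0.0162, and 0.0541 without the 42-day replicate 2).

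Of 8 genes of the carnitine shuttle, which brings activated fatty acids into mitochondria, Cpt1a, the liver form of carnitine palmitoyltransferase I, rose 1.19-fold at 42 days (0.25 ± 0.056, adjusted p = 0.0124). With the liver mean as a covariate its change was 0.18 (adjusted p = 0.464), in a fit where 0 of all probe sets passed limma's test at 42 days. Slc25a20, the carnitine carrier of the inner membrane, differed by 0.029 at 42 days (adjusted p = 0.854) and 0.071 at 5 days (adjusted p = 0.550), and Cpt1b was not analysed here. Between 42 and 5 days 4 of the 73 genes were past the test, all higher: Slc27a2, Slc27a5, Fabp1 and Apoc3. Over all genes 6.10% were past it in either direction, so this share lies near the background. Each of these 4 calls was lost without some array.

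**Figure D4:**
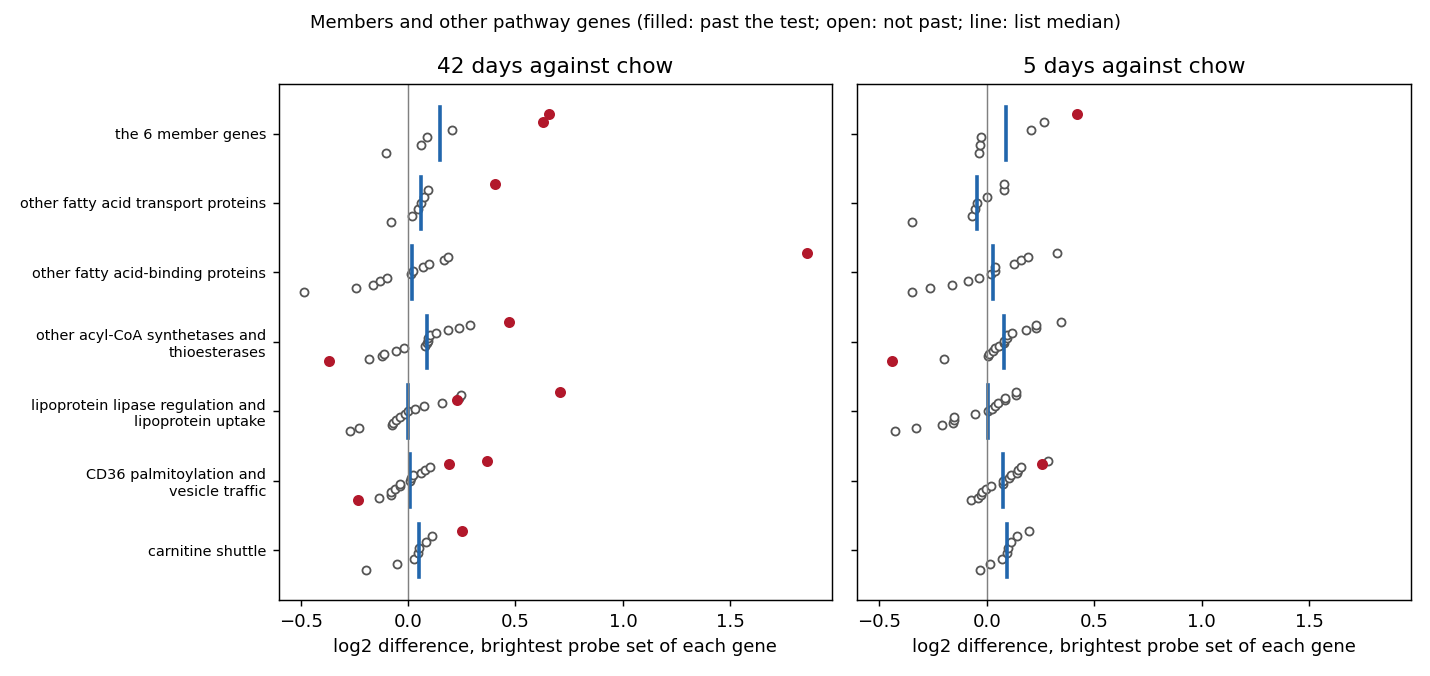
Log2 difference from chow (x axis) of the 6 genes described and of the 6 other lists of the route, by the brightest probe set of each gene, at 42 days (left) and 5 days (right). Filled points are past the test and blue lines are list medians; Fabp1, at 1.85, lies farthest from 0.

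The genes whose values over the 12 arrays were nearest to those of Fabp3, Cd36 and Slc27a1 were found by the root mean square difference of log2 values centred on each gene's mean. For Fabp3, whose own root mean square was 0.269, they were Acadl (0.0796), the long-chain acyl-CoA dehydrogenase, Cnnm4 (0.0965), Etfdh (0.0990), which passes electrons from beta-oxidation to ubiquinone, Lmbrd1 (0.105) and Lrrc39 (0.108). For Cd36, with 0.293, they were Cnnm4 (0.0991), Cilp (0.121), Acadl (0.130), Angptl1 (0.132) and Fbln1 (0.133). Acadl and Cnnm4 stood on both lists. For Slc27a1, with 0.128, they were Ehd2 (0.0641), 2810433D01Rik (0.0688), Fgfr2 (0.0689), Clec4b1 (0.0716) and Rarres1 (0.0723). The genes share the 12 arrays, and the likeness is a description of them.

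**Figure D5:**
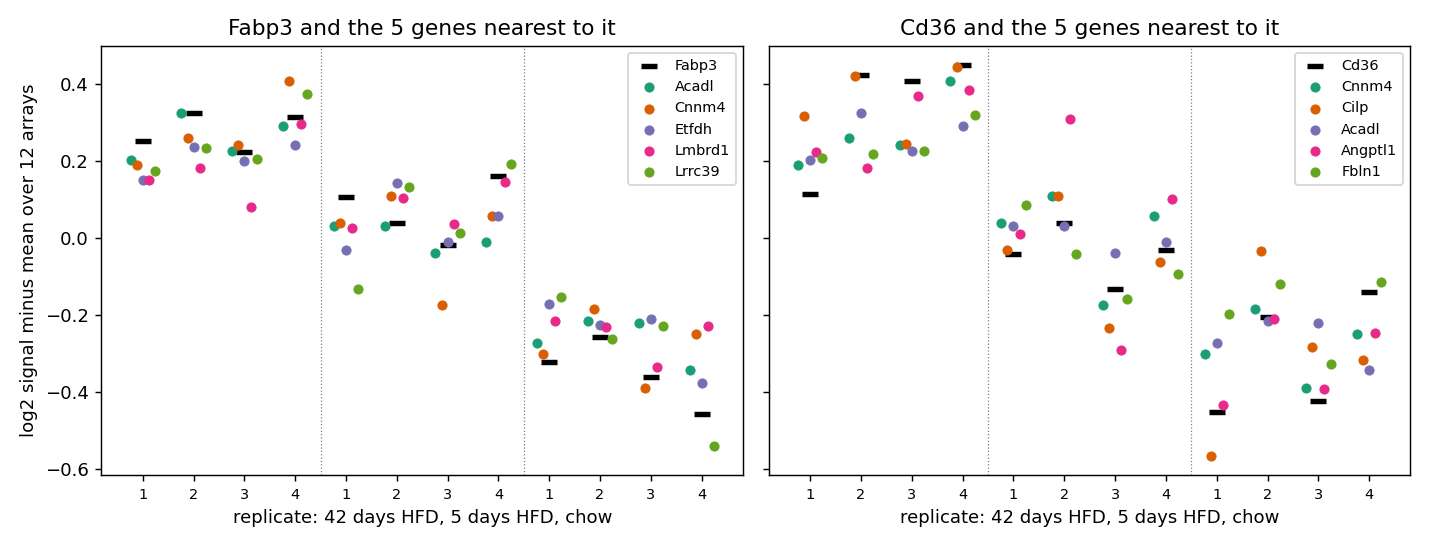
Log2 signal minus the mean over 12 arrays (y axis) of Fabp3 (left) and Cd36 (right), as black bars, and of the 5 genes nearest to each, as points, for replicates 1 to 4 at 42 days, at 5 days and on chow. Black bars lie above 0 on all 42-day arrays and below 0 on all chow arrays.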

How the data were processed

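The deposited values are the authors' RMA signals per probe set, per the submitters' processing notes, on a log2 scale, as their range (3.67 to 15.46) shows; the software version is not given in the sources used here. Of 45098 probe sets, 61 controls were left out; 34945 of the rest carried 1 gene symbol, 932 several and 9160 none. A group-means model over all 12 arrays was fitted in limma 3.58.1 (R 4.3.3), whose eBayes step, with an untrended prior, had 6.26 prior beside 9 residual degrees of freedom. The 3 contrasts were tested two-sided with Benjamini-Hochberg adjustment within each, at 0.05, and the procedure was tested on simulated data.

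Precision is limited by the number of arrays; a read depth does not exist for them. The members and lists were chosen with earlier results of these data known. Named genes were all members, list genes past the test against chow (at most 4 per list and contrast), 5 fixed genes, and the 5 genes nearest to each member whose brightest probe set passed the F-test. Alternatives were other normalizations, filters, priors, array weights, a fit of 8 arrays, replicate number as a block, marker means as covariates, and leaving out each array.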

Additional observations from a re-analysis of the deposited data

Results flagged for a closer look

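In 3 of 33 groups of 4 arrays, 1 array stood apart by Dixon's ratio of its gap to the whole range of the group, above the ratio that chance passes in about 5% of groups. The 42-day replicate 1 was the lowest of its group in Cd36 1450883_a_at (12.21, beside 12.50 to 12.54, ratio 0.877) and in Cd36 1423166_at (11.77, beside 11.98 to 12.00, ratio 0.946). Without it the 42-day changes of these probe sets were 0.73 and 0.35. The 5-day replicate 1 was the lowest in Slc27a1 1435658_at (8.84, beside 8.91 to 8.92, ratio 0.837).

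The changes at both high-fat times differed by the test of 42 against 5 days for 2 probe sets. Cd36 1450883_a_at was 0.39 higher at 42 days, and Slc27a1 1422811_at was 0.24 higher. Of 25 alternative fits, the Cd36 call was not past the test in 6 and the Slc27a1 call in 14.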

How the results depend on the processing

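Of 13 alternatives that kept all arrays or dropped a group, 1 (the liver covariate) was chosen after seeing the data. The number of member probe sets past limma's test at 42 days against chow, 3 as reported, was 6 with quantile normalization, cyclic loess or a trended prior, 5 with the dimmest 40% left out, array weights, the replicate block or the adipocyte covariate, and 0 with the liver covariate (5 at an unadjusted p under 0.05). Leaving out 1 array gave 2 to 6. At 5 days, 1 as reported, it was 3 with arrays centred on their medians, 2 with the dim filter or a trended prior, and 0 with only the 8 arrays compared (5 at an unadjusted p under 0.05), the slow fibre covariate (4) or the endothelial covariate (2). Leaving out 1 array gave 0 to 2. Between 42 and 5 days, 2 as reported, it was 1 with centred arrays or the slow fibre covariate and 0 with the endothelial (5 at an unadjusted p under 0.05) or liver covariate (3). It was 3 with cyclic loess, the dimmest 40% left out, 1 probe set per gene, a trended prior or array weights. Leaving out 1 array gave 0 to 2.

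Over all probe sets, the 1445 calls at 5 days were 482 with quantile normalization, 2771 centred, 502 with loess, 692 with 1 probe set per gene, 675 with array weights, 7 with only 8 arrays, 132, 75, 0 and 609 with the adipocyte, slow fibre, endothelial and liver covariates (3455 at an unadjusted p under 0.05 for the endothelial one), and 5 (without the 5-day replicate 2) to 1591 with 1 array left out. The 3953 calls at 42 days were 1011 with 1 probe set per gene, 2085 and 2605 with the adipocyte and slow fibre covariates, 0 with the liver covariate (4924 at an unadjusted p under 0.05) and 1945 to 4407 with 1 array left out. The 2692 calls between 42 and 5 days were 1210 with quantile normalization, 5221 centred, 1128 with loess, 1550 with 1 probe set per gene, 1 and 0 with the endothelial and liver covariates (7379 and 7689 at an unadjusted p under 0.05), and 32 to 3173 with 1 array left out. Of the calls, 47.5% were higher at 5 days and 85.3% after centring, which moved the median of all probe sets to 0.038 from -0.021. Between 42 and 5 days 39.9% were higher and 9.69% after centring.

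The Fabp3 1416023_at change at 5 days also missed the threshold with only the 8 arrays compared (0.42, adjusted p = 0.0688) and with the endothelial covariate (0.37, adjusted p = 0.591). The differences that changed direction were not past the test as reported, except that of Apoc3 at 42 days. With quantile normalization Lpl 1431056_a_at at 5 days was -0.0080 and Slc25a20 -0.0016. After centring Slc27a1 1422811_at, Slc27a4 and Lpl 1415904_at at 5 days were 0.030, 0.026 and 0.023, and Cd36 1450884_at between 42 and 5 days was -0.028. With the adipocyte covariate Slc27a1 1422811_at and Lpl 1415904_at at 5 days were 0.057 and 0.015, Fabp3 1444844_at at 42 days -0.0016, and Angptl4 0.11 at 5 and 0.033 at 42 days. With the slow fibre covariate Slc27a1 1422811_at at 5 days was 0.0094, Fabp3 1444844_at at 42 days -0.050, and Slc25a20 -0.060 at 42 and -0.024 at 5 days. With the endothelial covariate Cd36 1423166_at, Lpl 1431056_a_at and Cav1 at 5 days were -0.016, -0.13 and -0.14. With the liver covariate Apoc3 at 42 days was -0.091. With 1 array left out the 5-day ranges were -0.055 to 0.020 for Slc27a1 1422811_at, -0.054 to 0.00083 for Slc27a4 and -0.062 to 0.0042 for Lpl 1415904_at. At 42 days they were -0.014 to 0.064 for Fabp3 1444844_at and -0.016 to 0.099 for Slc25a20, and between 42 and 5 days -0.0040 to 0.096 for Cd36 1450884_at. The causes of these shifts were not tested.

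Replicate numbers did not pair the arrays throughout. Deviations from the group means correlated over 0.1 in 4 of 12 same-numbered pairs, within a range of -0.176 to 0.178. The best partner shared the number for 4 of 12 arrays. Every pair of replicate 1 was over 0.1: chow with 5 days (0.178), chow with 42 days (0.111) and 5 with 42 days (0.165). Replicate 1 also had the highest array median of its group at 42 days (7.70), at 5 days (7.63) and on chow (7.69). What these arrays share was not tested. With the number as a block, 3914 probe sets were past the test at 42 days, 1623 at 5 days and 2831 between 42 and 5 days, and the member probe sets added at 42 days were Cd36 1450884_at (adjusted p = 0.0493) and Lpl 1431056_a_at (0.0422). The number of arrays limits the precision of all values.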

Other observations

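The arrays of a group kept some order over these probe sets. The 42-day replicate 1 was the lowest of its group in 8 of the 11 probe sets, and its adipocyte mean (9.41) and endothelial mean (9.87) were also the lowest of the group, while its slow fibre mean (12.13) was the highest. The 5-day replicate 3 was the lowest in 7 of 11, with the lowest slow fibre mean (11.89) and endothelial mean (9.92) of its group and the highest adipocyte mean (9.94). On chow, replicate 1 was the lowest in 6 and replicate 4 the highest in 6 of the 11. Chow replicate 1 had the lowest adipocyte mean (9.94) and endothelial mean (9.79) of its group. Chow replicate 4 had the highest adipocyte mean (10.75) and the lowest slow fibre mean (11.46) of all arrays.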
